A study of Mus musculus with 21 samples.

Results

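The cytosolic ribosomal protein genes of the mouse heart were followed across 21 bulk RNA libraries. Members were all rows of the count table whose symbol begins with Rpl, Rps or Rplp and a number, together with Rpsa. Symbols marked as pseudogenes (-ps) and the kinases named Rps6k were left out. The rule gave 92 of the 20960 genes in the table. By name they are 43 large subunit proteins, 31 small subunit proteins and 3 stalk proteins, which make 77 core proteins. The others are 6 paralogues, 8 rows for retrocopies or copies named as like a member, and Rps19bp1, which encodes a protein that binds Rps19 and is no ribosomal protein itself.

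The cytosolic ribosome reads messenger RNA with its small subunit and joins amino acids in its large subunit. Each subunit is ribosomal RNA covered with proteins that are needed in nearly equal numbers, and most of these proteins come from a single expressed gene. Their messenger RNAs typically begin with a run of pyrimidines, the terminal oligopyrimidine tract, through which mTOR signalling and the binding protein Larp1 control translation. In heart muscle, ribosome production is known to rise with growth and load, and striated muscle expresses a paralogue of its own, Rpl3l.

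The animals were wild-type adult male mice. For 8 weeks 4 mice received polystyrene nanoplastics, plastic particles of nanometre size, and 3 control mice received distilled water. Each heart, flushed with cold buffer, was divided into a section labelled atrial, the right ventricle and the left ventricle, so every mouse has 3 libraries and all sections of a mouse share the animal. Genotype, sex and age class were shared by all groups, and nothing in the labels says whether mice were housed or processed in batches. In comparisons of treatment, values come from separate mice, and p-values measure the spread between these few animals. Comparisons of sections and the interactions use several libraries of the same mouse. Their p-values measure the spread left within mice.

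Library totals ran from 413436 to 2439314 counts in 20 libraries. The right ventricle of nanoplastics mouse 2 held 4662 counts. It was left out of the levels and fits by section, and kept in the whole-heart sum of its mouse. Most sections labelled atrial held little atrial muscle RNA: the summed level of 7 atrial markers was 226 to 654 CPM, a count relative to its library's total, in the 3 control atrial libraries, against 127 to 293 CPM in the control right ventricles. In the 4 nanoplastics atrial libraries it ran from 49.6 to 64008 CPM, highest in mice 1 and 4. Given these sums, "atrial" is used below as a label. Bmp10, a defining atrial gene, had 2 counts in all 21 libraries, the one at 64008 CPM included. Its row therefore does not tell how much atrial muscle a library held.

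The sequences at the start sites of a few members show the tract by which this gene family is best known. Windows of 30 bases, 10 before the annotated start and 20 from it, were read 5′ to 3′ on the sense strand from RefSeq promoters on the mouse build GRCm38.p6. Capitals mark a run of at least 5 C or T bases that holds no other base, counted from a C within 5 bases of the start. Pyrimidines directly before that C stay in lower case, as in Rpl35, Rpl38 and Rpl22l1. The 6 genes were picked to show a long, a typical and an absent tract among members described below.
Rpl35: ccgccCTTTCCTCTTTCTCTCgaaccaggc
Rpl38: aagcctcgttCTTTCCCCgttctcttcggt
Rps27: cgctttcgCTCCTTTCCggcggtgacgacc
Rps6: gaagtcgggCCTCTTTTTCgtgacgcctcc
Rpl22l1: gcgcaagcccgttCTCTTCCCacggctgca
Rps28: cgcgtgcggtctcgcgagagcgaaagtgag
The windows lie at chr2:39005112-39005141 (Rpl35, minus strand), chr11:114668570-114668599 (Rpl38, plus strand) and chr3:90213629-90213658 (Rps27, minus strand). The others lie at chr4:86857348-86857377 (Rps6, minus strand), chr3:28805498-28805527 (Rpl22l1, plus strand) and chr17:33824543-33824572 (Rps28, minus strand). Such a run was found at the start of 31 of the 67 members in the promoter table (46.3%), and of 5718 of 27025 genes in all (21.2%). A match describes these letters only, and a window without one says nothing about how the gene is controlled.

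Ribosomal protein genes took a sizeable share of every library. In the summed sections of a mouse, called the whole heart below, members held 4.66 ± 0.287% of counts in 3 control mice and 5.52 ± 0.568% in 4 nanoplastics mice (SD). The control mice stood at 4.89, 4.74 and 4.34%, the nanoplastics mice at 6.29, 5.60, 5.06 and 5.12%. All nanoplastics mice were above all controls, mouse 1 by the widest margin. As a share of counts not mitochondrially encoded the groups overlapped, since nanoplastics mouse 4, at 6.92%, lay below control mouse 1. The shares were 4.92 ± 0.457 against 6.41 ± 1.95% in the atrial section, where the libraries overlapped. They were 4.52 ± 0.260 against 5.44 ± 0.435% in the right ventricle (3 libraries each) and 4.67 ± 0.303 against 5.16 ± 0.515% in the left ventricle, where control mouse 1 at 5.02% lay above nanoplastics mice 1 and 3 at 4.99 and 4.66%. These shares depend on all other transcripts, mitochondrially encoded ones included, which held 26.6 ± 3.08% of counts in controls and 27.9 ± 1.74% in nanoplastics mice. A lower share of a cell type and less RNA per cell cannot be told apart in bulk libraries.

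**Figure D1:**
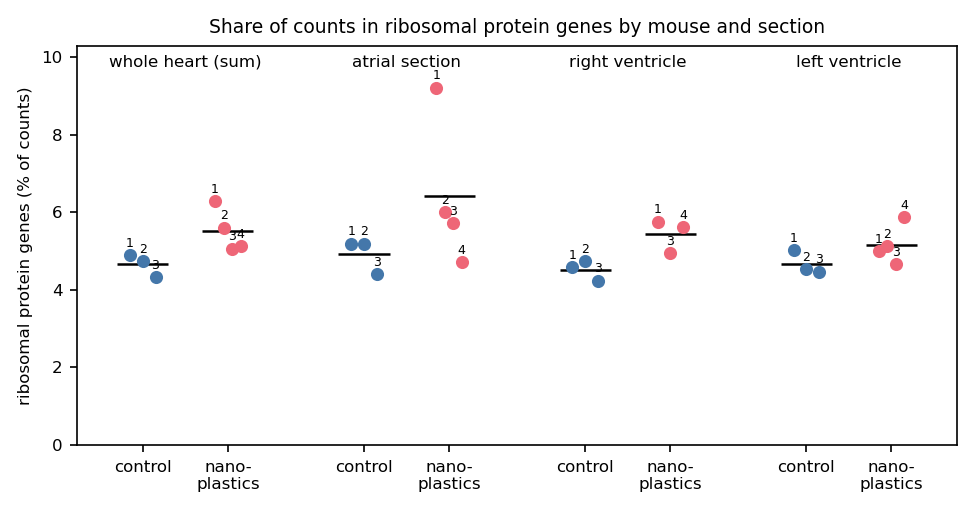
Share of a library's counts in the 92 members (percent, vertical axis) for the whole heart and each section. Points are mice numbered within their group and bars are group means. The right ventricle of nanoplastics mouse 2 is not shown as a point but is part of its whole-heart sum. The atrial library of nanoplastics mouse 1 stands highest, at 9.21%.

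Within the group, levels were compared per kilobase (kb) of coding sequence, on CPM scaled with edgeR's TMM factors, which set the bulk of genes equal between libraries. The library kit adds its barcode at the 5′ end of the RNA, and the sources used here do not say whether its counts scale with length. The 77 core proteins had a median control level of 1048 CPM per kb. Rpl41, with a coding sequence of 75 nt the shortest member tested, stood highest at 14527 ± 2027 CPM per kb (SD, n = 3). Rps29, a zinc-binding protein of the small subunit, followed at 3516 ± 313, then Rps14, which lines the platform, at 3086 ± 483 and the stalk protein Rplp1 at 3032 ± 444. Rps29, Rps14 and Rplp1 lie within their spread of each other. At the low end Rpl5, which carries ribosomal RNA of the large subunit into assembly, had 249 ± 14.3 CPM per kb and Rpl3, a protein near the peptidyl transferase centre, 115 ± 9.84.

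Core rows were nearly empty for 3 genes. Over all 21 libraries the row of Rpl24 held 3 counts, that of Rps10 held 4 and that of Rpl13a held 96, while the next lowest core gene, Rpl3, held 3994 and the highest 44904. The rows of pseudogenes named after Rps10 held 955 counts, of which 633 were on Rps10-ps1, and Rpl13a-ps1 held 57. The sources used here do not say how reads shared between a gene and its copies were counted, so these rows are not read as expression levels. In all, 53 members have at least 1 pseudogene row, and those rows held 55191 counts. Rpl36, Rpl31 and Rps19 had the largest such neighbours, at 12150, 5046 and 3720 counts, and their own rows are uncertain to that extent.

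The composition of the group varied little between libraries. Expressed as a share of all member counts, a tested member had a coefficient of variation of 9.76% in the median over the 20 libraries. Rpl7, of the large subunit, was steadiest at 5.45%, followed by Rps25 at 5.55% and Rpl27a at 5.76%. Of the core proteins with more than 100 counts, Rpl8 at 23.0%, Rps12 at 22.0% and Rpl30 at 20.7% varied most. The muscle paralogue Rpl3l varied by 26.5% and Rps19bp1 by 33.6%.

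Whole hearts of nanoplastics and control mice were compared first, since each mouse is then 1 value. Sections were summed as sequenced, so deeper libraries weigh more. The right ventricle gave 2042568 of 5535114, 1791758 of 4910975 and 1333133 of 3033092 counts in controls. In nanoplastics mice it gave 523089 of 3054688, 4662 of 2336707, 813585 of 2915123 and 438053 of 3638487. That share was smaller in every nanoplastics mouse than in any control, so the section mix differed with treatment. Its part in the result was not tested beyond a fit with sections at equal weight, given below. Of the 92 members 85 passed the filter on low counts, and 43 rose, 0 fell and 42 did not pass the test (edgeR quasi-likelihood test, Benjamini-Hochberg adjusted p under 0.05 over all 8485 genes tested). The same test called 1.79% of all genes higher and 0.766% lower, 2.56% in all. Log2 changes of 81 tested members were above 0 and their median was 0.54, beside -0.03 over all genes. Of the tested members 71 had an unadjusted p under 0.05, beside 1541 of all 8485 genes. In 60 of the 85, every nanoplastics mouse lay above every control, which was so for 7.88% of all genes. With library totals in place of TMM, which moved the median of all genes to -0.27, 10 members rose and 0 fell.

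**Figure D2:**
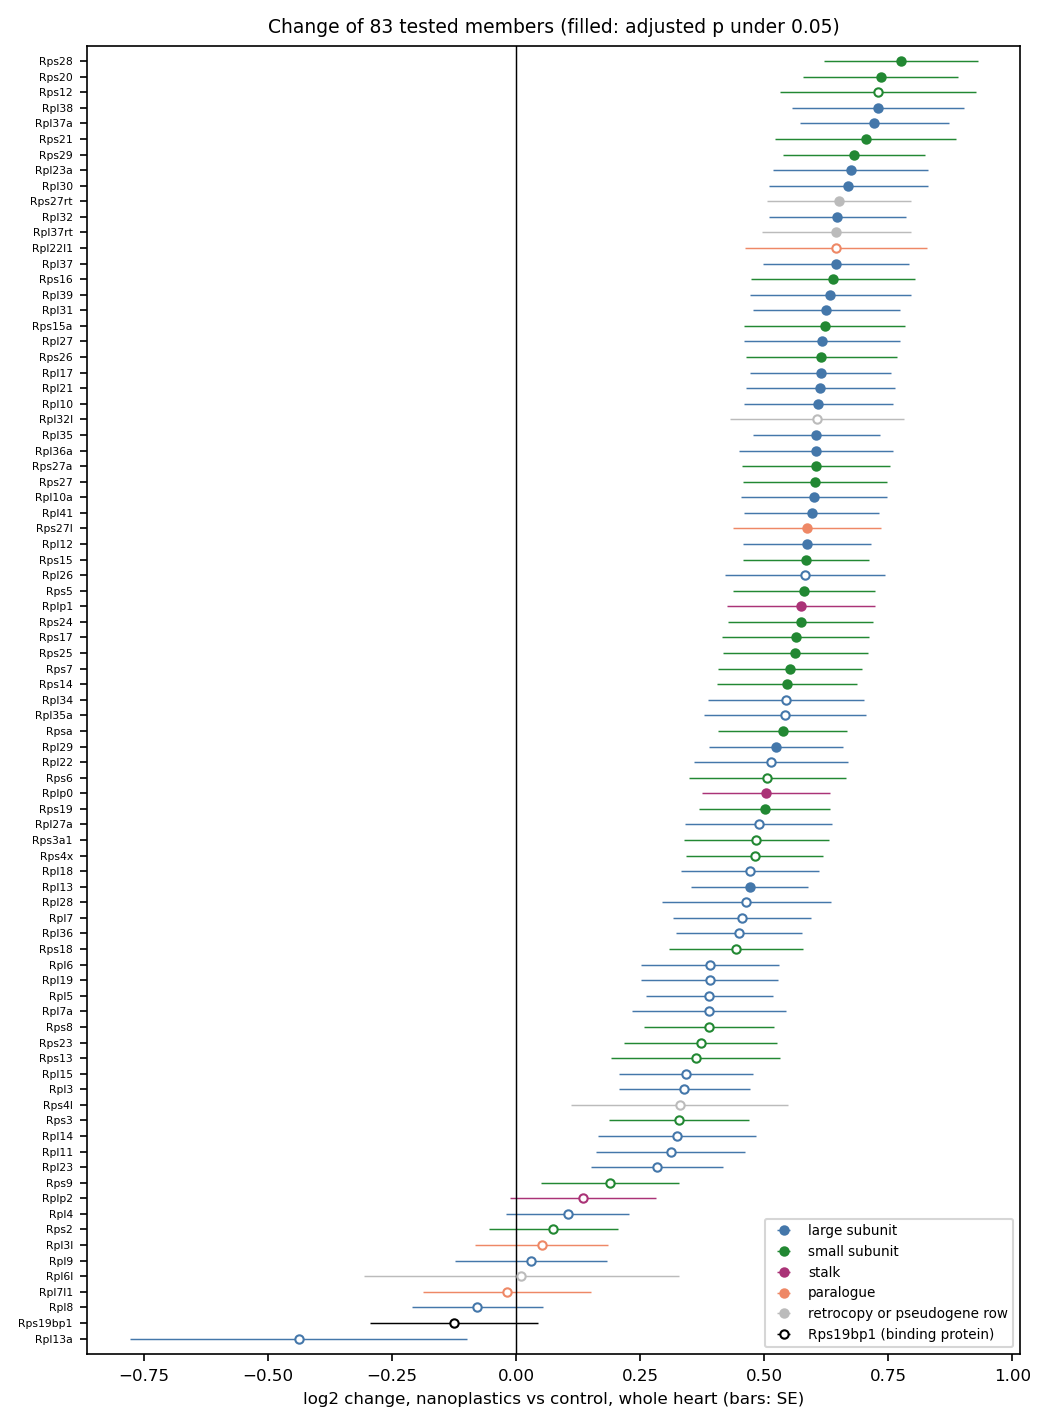
Log2 change from control to nanoplastics whole hearts for 83 of the 85 tested members (horizontal axis, bars are standard errors), coloured by role. Filled points passed at an adjusted p under 0.05: 42 points do, all on the side of higher levels, with Rps28 at the top and Rpl13a, a nearly empty row, at the bottom.

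Large subunit genes made up 20 of the calls among 42 tested, with a median log2 change of 0.53. Rpl38, which acts on the translation of Hox genes in embryos, stood at 147, 138 and 119 CPM in controls and at 315, 217, 172 and 192 CPM in nanoplastics mice 1 to 4. The groups did not overlap (log2 change 0.73, SE 0.174, adjusted p = 0.0361). Rpl37a, a zinc-binding protein, stood at 487, 398 and 378 against 879, 681, 589 and 628 CPM, again without overlap (0.72, SE 0.150, adjusted p = 0.0250). Rpl35, at the exit of the peptide tunnel, stood at 824, 804 and 705 against 1332, 1245, 1101 and 1056 CPM (0.61, SE 0.128, adjusted p = 0.0250).

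Other large subunit genes that rose included Rpl23a, where the signal recognition particle docks (log2 change 0.67, SE 0.156), and Rpl30, which binds kink-turns in RNA (0.67, SE 0.161). In Rpl30 nanoplastics mouse 3 was highest, at 787 CPM, while the other nanoplastics mice stood at 706, 568 and 489 and the controls at 477, 372 and 354. Rpl39, which lines the peptide tunnel, rose by 0.63 (SE 0.163), the short Rpl41 by 0.60 (SE 0.136), Rpl36a by 0.60 (SE 0.155) and Rpl10, which joins late and completes the subunit, by 0.61 (SE 0.150). Their adjusted p lay between 0.0296 and 0.0439. Rpl7 had a log2 change of 0.45 (SE 0.140, adjusted p = 0.0816) and Rpl22, an RNA-binding protein that cells can do without, 0.51 (SE 0.156, adjusted p = 0.0791), and neither passed.

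Among small subunit genes 18 of 30 tested rose, with a median log2 change of 0.56. Rps28, near the exit of the messenger RNA channel, had the largest change of all members. It stood at 200.2, 167 and 157 CPM in controls and at 386, 292, 247 and 273 CPM in nanoplastics mice (0.78, SE 0.155, adjusted p = 0.0230). All nanoplastics mice lay above the highest control. Rps20, a protein of the subunit's head, stood at 614, 543 and 468 against 1183, 894, 748 and 783 CPM (0.73, SE 0.155, adjusted p = 0.0250). Rps29 stood at 645, 586 and 541 against 1193, 939.8, 809.9 and 846 CPM (0.68, SE 0.143, adjusted p = 0.0250). Both sets of mice were apart, with nanoplastics mouse 1 highest.

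Rps21, at 256 ± 49.9 CPM in 3 controls and 418 ± 110 CPM in 4 nanoplastics mice, rose by 0.70 (SE 0.183, adjusted p = 0.0466). Rpsa, also known as the laminin receptor precursor, rose by 0.54 (SE 0.130, adjusted p = 0.0361), and its controls were close together at 537, 513 and 556 CPM against 909, 774, 722 and 699.9 CPM. Rps27 rose by 0.60 (SE 0.146) and Rps27a, which is made as a fusion with ubiquitin, by 0.60 (SE 0.149), at adjusted p of 0.0361 and 0.0374. Rps6, the substrate of the S6 kinases, stood at 579, 451 and 422 against 889, 700.4, 579.6 and 583 CPM, so that mouse 3 was level with the highest control. Its log2 change of 0.51 (SE 0.158, adjusted p = 0.0868) did not pass, nor did that of Rps4x (0.48, SE 0.138, adjusted p = 0.0647) or Rps12 (0.73, SE 0.197, adjusted p = 0.0627).

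The stalk of the large subunit recruits the factors that drive each step of translation. Its base Rplp0 stood at 1158, 1186 and 1184 CPM in controls and at 2017, 1576, 1452 and 1625 CPM in nanoplastics mice. It rose by 0.50 (SE 0.128, adjusted p = 0.0431), and Rplp1 rose by 0.57 (SE 0.149, adjusted p = 0.0444). Rplp2, the partner of Rplp1, stood at 644, 537 and 480.0 against 751, 498, 586 and 599 CPM, with the groups overlapping. Its log2 change was 0.13 (SE 0.147, adjusted p = 0.693), and whether the stalk genes differ from each other in their change was not tested.

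Some core genes had changes near 0. Rpl8, a protein of the large subunit close to its catalytic centre, stood at 439, 362 and 353 against 403, 364, 354 and 336 CPM (log2 change -0.08, SE 0.132, adjusted p = 0.814). Rpl9 had 0.03 (SE 0.154), Rps2, at the entry of the messenger RNA channel, 0.07 (SE 0.130) and Rpl4, which reaches into the peptide tunnel, 0.10 (SE 0.124). A p above the threshold does not show that these genes were level. Rpl13a, whose row is nearly empty, had -0.44 (SE 0.340, adjusted p = 0.543).

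**Figure D3:**
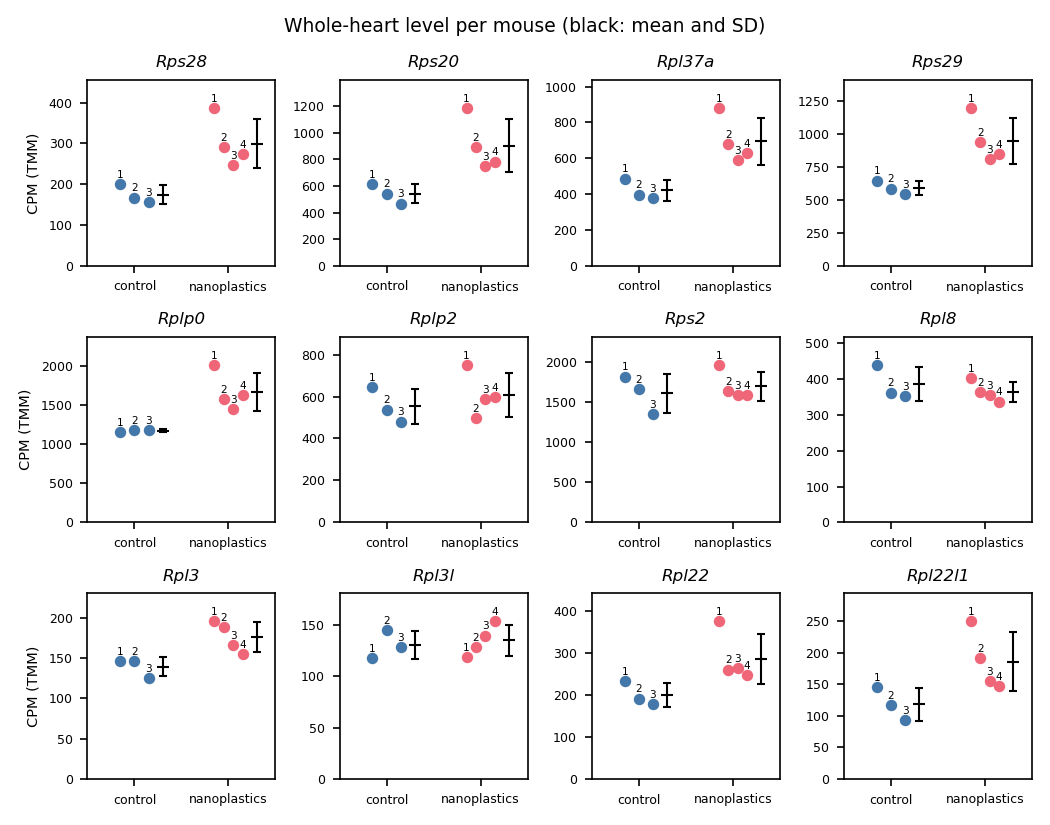
Whole-heart levels of 12 members in TMM-scaled CPM (vertical axes from 0), points numbered by mouse within each group, with the mean and SD in black. Rps28, Rps20, Rpl37a, Rps29 and Rplp0 separate the groups, while Rplp2, Rps2, Rpl8 and Rpl3l overlap.

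Log2 changes of the 4 tested paralogues ran from -0.02 to 0.64, and whether they differ from each other was not tested. Rps27l, a p53 target closely related to Rps27, rose by 0.59 (SE 0.149, adjusted p = 0.0420). It stood at 359, 308 and 285 CPM in controls and at 584, 486, 452 and 385 CPM in nanoplastics mice, without overlap. Rpl22l1, which can take the place of Rpl22, stood at 145, 117 and 92.9 against 250.1, 191, 155 and 147 CPM. Its log2 change was 0.64 (SE 0.184, adjusted p = 0.0706). Rpl3l, the striated muscle form of Rpl3, stood at 118, 145 and 129 against 119, 128, 139.8 and 154 CPM, fully overlapping (log2 change 0.05, SE 0.134, adjusted p = 0.889). Rpl3 itself had 0.34 (SE 0.133, adjusted p = 0.168). Rpl7l1, a nucleolar assembly factor, had -0.02 (SE 0.170, adjusted p = 0.972). Rpl39l held 23 counts and Rpl36al 4 counts over all libraries and they were not tested. Rpl10l was not analysed here.

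The balance between paralogue and parent gene was tested as a ratio of counts per coding length. Rpl3l to Rpl3 was 0.933 ± 0.119 in 3 controls and 0.772 ± 0.168 in 4 nanoplastics mice (two-sided exact permutation test, p = 0.2, or 0.5 when adjusted for 5 pairs). Rpl7l1 to Rpl7 was 0.0536 ± 0.00661 against 0.0393 ± 0.00796 (exact permutation p = 0.0857, adjusted p = 0.429). Rpl22l1 to Rpl22 was 0.614 ± 0.0581 against 0.676 ± 0.0720, and Rps27l to Rps27 was 0.338 ± 0.00716 against 0.334 ± 0.0164. With Rpl39l to Rpl39, none of the 5 pairs passed. The smallest p this exact test allows is 0.0286 before adjustment for 5 pairs. A fully separated pair on its own could therefore not have passed, and no conclusion is drawn from the lack of calls. In controls the muscle form Rpl3l was thus about as abundant per coding length as Rpl3, at 107 ± 11.4 against 115 ± 9.84 CPM per kb.

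Of the 8 rows for copies 5 were tested, and Rps27rt (log2 change 0.65, SE 0.145, adjusted p = 0.0292) and Rpl37rt (0.65, SE 0.150, adjusted p = 0.0307) rose. Their parents Rps27 and Rpl37 (0.64, SE 0.147) rose by like amounts, and near-identical sequences can share reads. Rps4l had 0.33 (SE 0.218, adjusted p = 0.461) and Rpl6l, at 3.42 ± 0.140 CPM in controls, 0.01 (SE 0.318). Rps19bp1, a regulator of the deacetylase Sirt1 that also acts in ribosome assembly, stood at 34.6, 36.3 and 24.6 against 30.5, 32.8, 29.6 and 25.5 CPM. Its groups overlapped (-0.13, SE 0.170, adjusted p = 0.759).

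Most members ranked the mice in a like order. Nanoplastics mouse 1 was the highest of the 7 mice in 74 of 85 tested members and control mouse 3 the lowest in 69. Relative to the control mean, the median member stood at 1.76, 1.47, 1.28 and 1.27 in nanoplastics mice 1 to 4 and at 1.14, 0.978 and 0.884 in control mice 1 to 3. The calls rest on this small number of mice. Without control mouse 2, and likewise without control mouse 3, 0 members passed in edgeR, with 63 at an unadjusted p under 0.05 each time. The numbers of all genes at either threshold in fits without 1 mouse are not given here. Without nanoplastics mouse 1 the 4 called members were Rps28, Rpl37a, Rps29 and Rpl35, and without nanoplastics mouse 2 the only one was Rps28. The median log2 change of the tested members stayed between 0.44 and 0.66 when any mouse was left out.

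Annotated length moved with the change. The median transcript length per count of genes that are no members was 1432 ± 44.4 nt in control and 1249 ± 32.6 nt in nanoplastics whole hearts (SD, n = 3 and 4). Of other genes with a transcript of at most 1000 nt, 79 of 792 rose (9.97%) with a median log2 change of 0.31. Of longer ones 26 of 7530 rose (0.345%) with a median of -0.06. Among the members 30 of 51 rose at up to 1000 nt (median 0.58) and 13 of 34 above it (median 0.46). So members had higher medians than other genes in both length classes, a description with no test. Transcript length here is that of the longest annotated protein-coding isoform, which may not be the one expressed. Some members above 1000 nt have short coding sequences, such as Rps15a (5179 nt, coding 390 nt) and Rps20 (3706 nt, coding 357 nt). The classes may therefore not match members and other genes for the length of the expressed RNA.

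The same slope ran through the members themselves. Of the 27 members with the shortest coding sequences (75 to 396 nt) 20 rose, with a median log2 change of 0.62. Of the 27 of middle length (399 to 576 nt) 15 rose (median 0.55), and of the 27 longest (582 to 1257 nt) 7 rose (median 0.39). Across the 81 tested members with a coding length, Spearman's rho between change and coding length was -0.63 and Pearson's r -0.51. Genes measured in the same 7 mice are not independent replicates, so no p is given. Change and level had a rho of -0.03. With the trend on transcript length, fitted in each mouse on other genes, removed, the median member stood at 0.31 against 0.01 for all genes and 3 members passed, Rpsa and Rpl21 among them. What part RNA length had in the result beyond this was not tested.

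**Figure D4:**
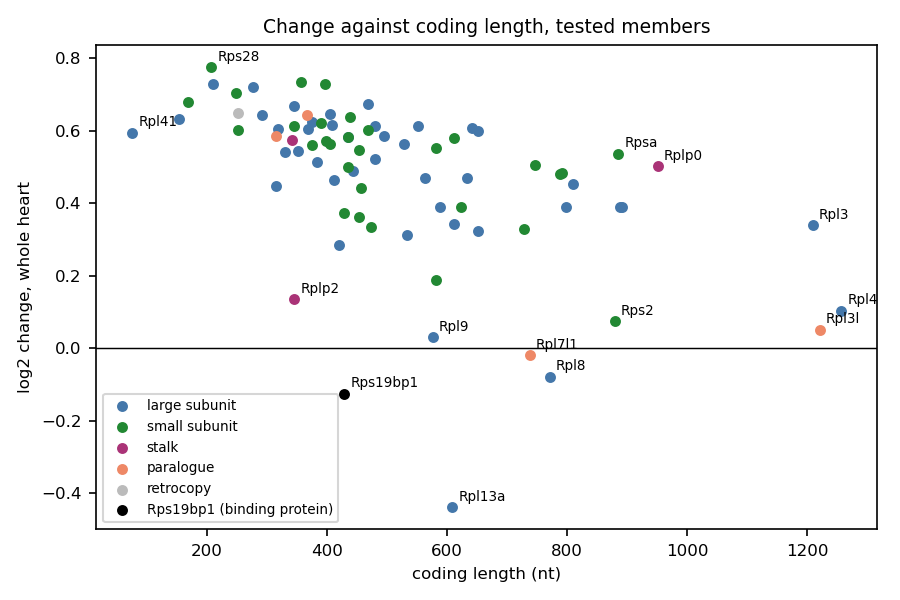
Log2 change in the whole heart (vertical axis) against annotated coding length in nt (horizontal axis) for 81 tested members, coloured by role. Points fall from short members such as Rps28 towards long ones such as Rpl3, Rpl4 and Rpl3l, with Rpl8, Rpl9, Rplp2 and Rpl13a below the main band.

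The changes were also read by start tract, as a description. Of 30 tested members with the run 12 rose, with a median log2 change of 0.54, and of 33 without it 17 rose, with a median of 0.51. Rps28, which had the largest change, has no such run in its window. Rpl35, with the longest marked run among those printed, at 16 bases, rose by 0.61. Other products of the same regulatory class were read from a list: of 20 translation factors and related genes with known tracts, Vim, an intermediate filament gene of mesenchymal cells, rose (0.53, SE 0.137, adjusted p = 0.0444). Eef2, which moves the ribosome along, fell (-0.54, SE 0.145, adjusted p = 0.0481). The median of that list was 0.33. Eef1a1 (0.40, SE 0.177, adjusted p = 0.229) and Tpt1 (0.37, SE 0.131, adjusted p = 0.127) did not pass.

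Ribosomal proteins whose symbols fall outside the rule were read beside the members. Fau, a fusion of a ubiquitin-like domain with a small subunit protein, rose by 0.53 (SE 0.142, adjusted p = 0.0477). Rack1, the scaffold on the small subunit, had 0.37 (SE 0.139, adjusted p = 0.156). Ribosome assembly genes were tested for 48 of 54 listed. The edgeR test called 0 of them, DESeq2 called 2 (both higher), and their median was 0.04. An unadjusted p under 0.05 was found for 7 of the 48, beside 1541 of all 8485 genes. Of 13 tested genes of mTOR signalling and tract control Eif4ebp2, a repressor of translation initiation, fell (-0.99, SE 0.267, adjusted p = 0.0485) and the median was -0.25. Mtor had 0.47 (SE 0.245), Larp1 -0.25 (SE 0.304) and Eif4ebp1 0.16 (SE 0.144), each with an adjusted p of at least 0.324. Myc did not pass the count filter.

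Markers of cell types were summed as lists in the same whole hearts. For 10 fibroblast markers, all detected, the sum ran from 1303 to 1554 CPM in controls and from 1461 to 2025 CPM in nanoplastics mice, and 1 of the 10, Dcn, rose. For 10 heart muscle cell markers it ran from 47968 to 61268 and from 53943 to 65280 CPM, and 1, Tnni3, rose. For 7 atrial markers it ran from 202 to 331 and from 217 to 17735 CPM, and 1 of 6 tested, Dkk3, rose (log2 change 1.78, SE 0.463, adjusted p = 0.0466). For 5 ventricular markers it ran from 17427 to 19700 and from 16218 to 18874 CPM, and 1 of 4 tested, Myl2, rose (0.54, adjusted p = 0.0250). DESeq2 called 3 atrial and 3 fibroblast markers higher. Macrophage, endothelial, smooth muscle and erythroid sums overlapped between the groups. The atrial markers were highest in the atrial libraries of nanoplastics mice 1 and 4, and without these atria 48 members rose. The number of all genes called without them is not given here. A nanoplastics left ventricle with 2266 CPM of atrial markers, where control left ventricles reached 334 CPM, stayed in that fit. What part the cell mix had in the result was not tested otherwise.

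By section, the comparison of nanoplastics with control was repeated on 83 tested members. These comparisons hold the libraries that make up the whole heart and are not independent of it. In the right ventricle, with 3 libraries in each group, every nanoplastics library held fewer counts (438053 to 813585) than every control (1333133 to 2042568). What part depth had was not tested. Here 20 members rose and 0 fell, beside 1.12% of all 5201 genes called higher and 0.192% lower, 1.31% in all. The median log2 change was 0.58, beside -0.02 over all genes, and the groups were apart, with nanoplastics higher, in 66 members and 11.5% of all genes. With library totals in place of TMM, which moved the median of all genes to -0.30, 0 members rose and 1, Rps19bp1, fell.

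Rpl39 had the largest rise there. It stood at 157, 159 and 129 CPM in control right ventricles and at 351, 242 and 266 CPM in those of nanoplastics mice 1, 3 and 4 (log2 change 0.92, SE 0.191, adjusted p = 0.0277). Rps28, at 203, 162 and 146 against 405, 249.8 and 327 CPM, rose by 0.91 (SE 0.198, adjusted p = 0.0279). Next came Rps20 (0.84), Rpl22 (0.80), Rps21 (0.80), Rps12 (0.80), Rps29 (0.80) and Rpl37 (0.79), with standard errors from 0.181 to 0.206 and adjusted p from 0.0286 to 0.0478. Of the 20 calls 11 were large subunit, 8 small subunit and 1 stalk genes (Rplp1, 0.74, SE 0.177). For Rpl39, Rps28, Rps20, Rpl22, Rps21, Rps12, Rps29, Rpl37 and Rplp1 the groups did not overlap and nanoplastics mouse 1 was highest. Among the other calls Rpl30 was highest in mouse 3. Marker sums moved in the same libraries: 7 atrial markers summed to 127 to 293 CPM in controls and 338 to 525 CPM in nanoplastics right ventricles, where Nppa, the only one tested, rose (1.12, SE 0.251, adjusted p = 0.0322). The ventricular light chain Myl2 also rose (0.82, SE 0.185, adjusted p = 0.0289), and 10 endothelial markers summed to 1263 to 1423 against 918 to 1241 CPM. The sum of 6 smooth muscle markers was 386 to 447 CPM in controls and 132 to 315 CPM in nanoplastics right ventricles. Their part in the result was not tested.

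Rps19bp1 had the lowest value there. Its right ventricular levels were 38.0, 39.9 and 24.6 CPM in controls and 16.4, 18.8 and 17.1 CPM in nanoplastics mice, without overlap. The log2 change of -0.98 (SE 0.324, adjusted p = 0.113) did not pass. In the left ventricle the value was 0.11 (SE 0.221), and the difference between the ventricles, -1.16 (SE 0.368), did not pass either (adjusted p = 1.00). The right ventricular calls were sensitive to single libraries. Adding the library of 4662 counts left 3 calls, Rpl38, Rps28 and Rpl39, with a median of 0.55. Leaving out any control mouse or nanoplastics mouse 1 left 0 in edgeR, with 52 to 64 members at an unadjusted p under 0.05. Leaving out mouse 4 left Rpl30 and Rpl39, and leaving out mouse 3 gave 52. The numbers of all genes at either threshold in these fits are not given here.

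In the atrial section 0 members passed, as did 0% of all 5502 genes, although the median log2 change was the largest of the sections at 0.63. Values were above 0 in 81 of 83 members, and DESeq2 called 44. An unadjusted p under 0.05 was found in 65 members and in 674 of all 5502 genes. Every nanoplastics library was above every control in 48 members and in 6.96% of all genes. The members with the smallest p were Rpl30 (0.97, SE 0.254), Rpl12 (0.83, SE 0.222), Rpl38 (0.96, SE 0.261), Rps20 (0.93, SE 0.259) and Rpl22l1 (1.01, SE 0.280), each at an adjusted p of 0.305. The atrial library of nanoplastics mouse 1 set the scale: the median member stood at 2.24 times the control mean there and at 1.45, 1.36 and 1.15 times in mice 2, 3 and 4. That library was also the richest in atrial muscle, and without mouse 1 the median was 0.39.

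In the left ventricle 0 members passed, beside 0.0368% of all 5440 genes called higher and 0.0184% lower, 0.0551% in all. The median was 0.33, 77 of 83 values were above 0 and DESeq2 called 14. An unadjusted p under 0.05 was found in 48 members and in 768 of all 5440 genes. Groups were apart in 22 members and in 6.71% of all genes. The smallest p belonged to Rps28 (0.62, SE 0.163), Rpl35 (0.49, SE 0.131), Rpl37a (0.55, SE 0.159) and Rpl41 (0.47, SE 0.138), each at an adjusted p of 0.138. For Rpl35 the control left ventricles held 766, 804 and 913 CPM and the nanoplastics ones 1212, 1183, 1075 and 1213 CPM, without overlap. Rpl8 stood at 552, 355 and 316 against 313, 307, 297 and 359 CPM (-0.39, SE 0.167, adjusted p = 0.272). Control mouse 1 alone stood above the nanoplastics range.

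**Figure D5:**
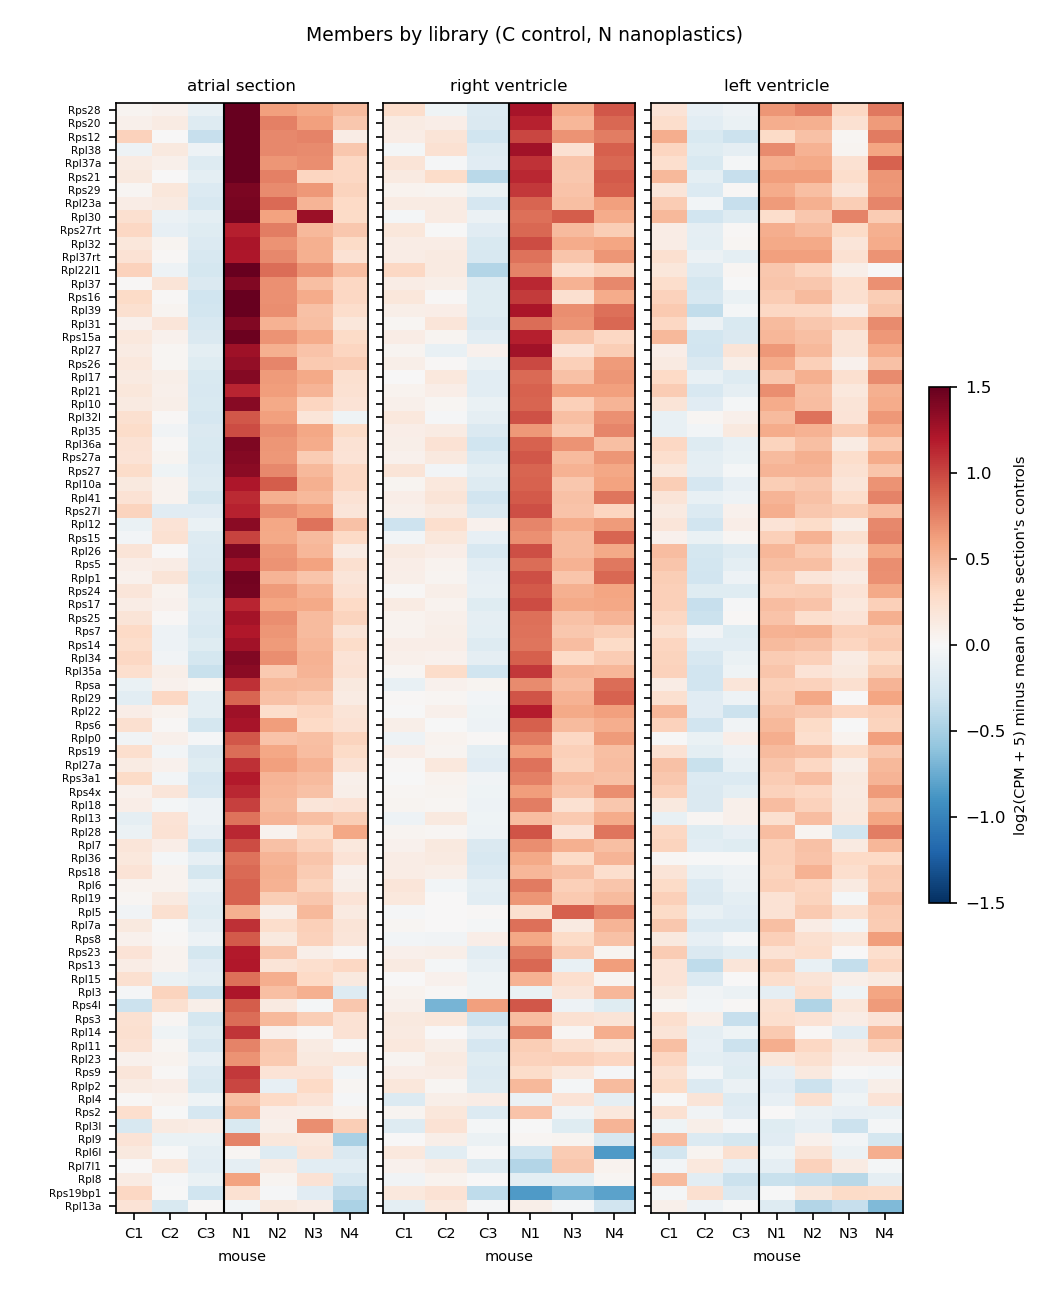
Level of 83 of the 85 tested members in each library as log2(CPM + 5) minus the mean of the control libraries of that section (colour, red higher, blue lower), members ordered by their whole-heart change and libraries by mouse. The atrial library of nanoplastics mouse 1 is darkest, most members are red in the other nanoplastics libraries, and Rps19bp1 is blue in all 3 nanoplastics right ventricles shown.

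The size of the change was compared between sections as an interaction over 20 libraries. No member passed in edgeR, beside 0.0154% of 6514 genes for atrial section against left ventricle and 0% for right against left ventricle. At an unadjusted p under 0.05 there were 7 and 2 members, beside 333 and 186 of all 6514 genes. The median differences were 0.25 for the atrial section and 0.22 for the right ventricle, each relative to the left ventricle. Rpl22l1 had the smallest p in the first (0.73, SE 0.224, adjusted p = 0.933), with 0.20 in the left ventricle and 1.01 in the atrial section. Rpl8 (0.51), Rpl34 (0.42) and Rps13 (0.44) also had a p among the smallest. In the second Rps19bp1 had the smallest p, and Rpl39 (0.63, SE 0.253), Rpl29 (0.43) and Rps6 (0.37) were among the next.

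Sections themselves differed little in ribosomal protein transcripts, though most members stood slightly higher in the atrial section. With mouse as a block, 0 of 83 members passed for atrial section against left ventricle (0.155% of 5176 genes called), for atrial section against right ventricle (0.0394% of 5072 called higher and 0.0197% lower, 0.0591% in all) and for right against left ventricle (0% of 5382), in edgeR and in DESeq2. At an unadjusted p under 0.05 there were 2, 3 and 0 members, beside 652 of 5176, 325 of 5072 and 270 of 5382 genes. The medians were 0.09, 0.09 and -0.02. Values were above 0 in 77, 76 and 32 of the 83 members, beside 51.4, 51.1 and 49.5% of all genes. Rps4l had the smallest p between atrial section and left ventricle (0.69 higher in the atrial section, SE 0.196, adjusted p = 0.159), followed by Rpl8 (0.29), Rpl37rt (0.21), Rpl23a (0.21) and Rplp2 (0.21). Between atrial section and right ventricle Rpl8 (0.29, SE 0.118), Rpl10 (0.24), Rps16 (0.24), Rpl9 (0.23) and Rpl22l1 (0.26) had the smallest p. Between the ventricles these were Rpl7a (-0.15, SE 0.0893), Rpl6 (0.13), Rpl32l (0.24), Rpl22l1 (-0.13) and Rps27rt (-0.12), right relative to left.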

How the data were processed

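The authors deposited raw counts by gene symbol, 1 table of 20960 genes and 21 libraries. According to the labels, polyadenylated RNA was captured on beads and barcoded at its 5′ end during reverse transcription, and the libraries were then pooled. Per the submitters' processing notes reads were aligned with STAR. The sources used here do not give its version, the genome build, the annotation, the counting program or the use of strand and molecular identifiers, so counts may include copies of a molecule.

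The tests ran in R 4.3.3, with edgeR 4.0.16 as the main tool (filterByExpr, TMM, robust quasi-likelihood test, Benjamini-Hochberg adjustment over all genes, threshold 0.05). DESeq2 1.42.0 and limma 3.58.1 served as alternatives. A mouse's 3 sections were summed for the whole heart, the library of 4662 counts included. Fits by section leave that library out. Section comparisons and interactions have mouse as a block. Transcript and coding lengths come from the GENCODE annotation supplied as reference, matched by symbol, and no coordinates were taken from it. The steps were tested on simulated counts.

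Named are, per comparison, the 8 called members with the largest rise or fall, or where under 5 were called those with the 5 smallest p. The whole heart adds the 5 lowest changes, the 5 smallest p, and a list of paralogue pairs, stalk and pathway genes. Genes described by level, variation or copies, and Rpl9, Rps2, Rpl4, Rps12 and Rpl37 in the whole heart, were named after their values were seen. A few named genes are not reported here, but counts and medians include them. Members and lists were chosen with earlier results of these data known.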

Additional observations from a re-analysis of the deposited data

Results flagged for a closer look

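Single mice far from the rest of their group were looked for among the named members in groups of 4 (Dixon's test at the 95% level), and 3 of 51 groups showed one, where chance gives about 1 in 20. For Rpl22 in the whole heart, nanoplastics mouse 1 stood at 376 CPM and the other 3 nanoplastics mice at 247 to 265 CPM. For Rpl38 in the atrial section, the library of nanoplastics mouse 1 stood at 436 CPM and the others at 176 to 220.0 CPM. For Rpl6l in the whole heart, nanoplastics mouse 3 stood at 4.38 CPM and the others at 3.01 to 3.23 CPM, where 1 count in mouse 3 is worth 0.365 CPM.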

How the results depend on the processing

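The median change of the tested members was above 0 in each nanoplastics comparison under every alternative run, while the number of calls moved. How many of all genes each alternative called is not given here. A change in the number of called members is therefore not read as particular to them. In the whole heart, where 43 rose, it was 10 with library totals, 3 with the length trend removed and 21 with sections at equal weight (limma-trend). Leaving out 1 mouse gave 0 to 50 calls in the whole heart, 0 to 52 in the right ventricle and 0 in the atria and left ventricle. For the right ventricle, where 20 rose, it was 1 (lower) with library totals, 2 without the filter, 6 with the length trend removed, 54 with DESeq2 and 3 with the library of mouse 2. In the atria it was 9 without the filter and 44 with DESeq2, and in the left ventricle 14 with DESeq2. The labels do not say that mouse numbers pair the groups, and the main fits leave the number out. Same-numbered mice had correlations of 0.07, 0.09 and -0.04 in the whole heart, where other pairs ran from -0.25 to 0.20. So few values cannot show whether equal numbers share a batch or an order of processing. With the replicate block there were 65 calls in the whole heart, 46 in the atria, 29 for the right and 0 for the left ventricle, and the section comparisons kept 0 without their block.

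In the whole heart signs turned only in named genes that had not passed. Rpl7l1 became 0.0055 with DESeq2's size factors, 0.0074 with DESeq2, 0.0070 at equal weight, 0.051 with length removed, 0.021 in limma-voom over 20 libraries, 1.26e-05 without mitochondrially encoded genes, 0.049 with the replicate block and 0.054 without the atria of nanoplastics mice 1 and 4. Leaving out 1 mouse gave Rpl7l1 -0.0955 to 0.0845, Rpl6l -0.122 to 0.0695, Rpl3l -0.0194 to 0.146 and Rpl8 -0.128 to 0.0562. Rpl6l became -0.22 with library totals, -0.013 without filter and -0.17 with length removed. Rpl3l became -0.20 with totals and -0.015 with the block, Rplp2 -0.11 with totals and -0.028 with length removed, and Eif4ebp1 -0.10 with totals. With pseudogene counts added, chosen after seeing the data, Rpl13a became 0.021. The cause was not tested. Depth limits rows of a few counts, such as Rpl6l, and all of the library of 4662 counts.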

Other observations

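Rpl30 did not follow the order of mice seen in most members. In nanoplastics mouse 3 it stood at 930 CPM in the atrial section, 747 in the right and 711 in the left ventricle. In nanoplastics mouse 1 the values were 1046, 707 and 512 CPM. Control libraries of Rpl30 ran from 342 to 597 CPM. This gene was singled out after its values were seen.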
